A study of Caenorhabditis elegans with 2 samples.

Results

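Mitochondrial ribosomal protein genes were described here by the regions that chromatin immunoprecipitation and sequencing (ChIP-seq) of tagged SPR-1 gave around their starts in the nematode Caenorhabditis elegans. The members were all protein-coding genes whose symbol begins with mrpl- (large subunit) or mrps- (small subunit) in the Ensembl annotation of the genome build WBcel235, which is ce11 under another name. There were 70 of them among 19973 nuclear protein-coding genes, 41 of the large subunit and 29 of the small subunit. Genes named mrp- without l or s encode multidrug-resistance-type membrane transporters and were not members.

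Worms of strain OP521, with the allele unc-119(tm4063) III and the integrated transgene wgIs521, made SPR-1 fused at its C-terminus to GFP and FLAG. Chromatin of whole L4 hermaphrodites, taken 50 hours after the culture had been synchronised by bleaching and L1 starvation, was sheared by sonication and precipitated with an antibody against GFP. There was 1 group, with 2 biological replicates. No untagged or SPR-1-free group was at hand, so specific binding by SPR-1 cannot be told apart from other precipitated chromatin. The transgene adds to whatever the worm's own spr-1 locus makes, and a signal from whole worms cannot be assigned to a tissue.

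The mitochondrial ribosome translates the few proteins that the mitochondrial genome encodes, which are subunits of the respiratory chain and of ATP synthase. All of its own proteins are encoded in the nucleus, made in the cytosol and imported, so their supply has to be matched to a ribosomal RNA made inside the organelle. In C. elegans many such housekeeping genes lie in operons, where a shared promoter drives several genes and the downstream transcripts receive the spliced leader SL2. SPR-1 is the worm counterpart of CoREST, a corepressor that acts with the histone demethylase LSD1 and with histone deacetylases.

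The lists hold regions, each with a summit and a signal that the authors assigned, whose scale the files do not state. The pooled list, made from both replicates together, had 29977 nuclear lines with signals down to 17.58 and a median of 27.35. With its mitochondrial lines the pooled list held exactly 30000, which may be a set length, so weaker regions may be missing from it. Its 1663 strongest nuclear lines were the thresholded list, which ended at 79.71. Replicate 1 had 26049 nuclear lines and replicate 2 had 21944. Signals were compared only within a list, and ranks count nuclear lines from 1 for the strongest. Read depth is unknown.

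Of the 70 members, 8 had a thresholded summit at most 1000 bp from the start (11.4%, 95% Wilson interval 5.91 to 21.0), against 5.83% of all nuclear protein-coding genes. These 8 were mrpl-23, mrpl-28, mrpl-55, mrps-7, mrpl-12, mrps-23, mrpl-45 and mrpl-17. A summit anywhere in the pooled list was far more frequent, at 53 members (75.7%, interval 64.5 to 84.2) against 45.8% of all genes. Among genes with a pooled summit, the thresholded share of the members was 8 of 53 (15.1%, interval 7.85 to 27.1), against 12.7% of all such genes, and the interval held that background. The mitochondrial ribosomal protein genes thus stood above the background in having a candidate region near the start. This was not particular to them: a pooled summit was also near 78 of 81 cytosolic ribosomal protein genes. It was near 27 of 33 other genes of mitochondrial translation and genome upkeep as well. At this threshold the share of the members' regions that passed could not be told apart from the background, within a wide interval. The intervals take genes as independent, although neighbours can share a summit. The share moved with the cutoff, to 7.14% of members against 3.15% of all genes for the 843 strongest thresholded lines, and to 25.7% against 10.2% for the 3372 strongest pooled lines. Those 3372 lines reached 18 of the 53 members with a pooled summit and 2044 of the 9153 genes with one. The contrast among genes with a pooled summit thus also moved with the cutoff.

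The sequences under the summits of 6 of the 8 thresholded members are shown because they are what the precipitated regions have at their centre, and those of mrpl-23 and mrpl-17 are not printed. Each is the summit base of the ce11 reference with 50 bases on either side and reads 5′ to 3′ along the strand of the named gene. Those on the minus strand are mrpl-28 at chrII:156087-156187, mrps-7 at chrIV:14767859-14767959, mrps-23 at chrIII:9523704-9523804 and mrpl-45 at chrIII:1202333-1202433. On the plus strand are mrpl-55 at chrIV:443761-443861, mrpl-12 at chrIII:10707193-10707293 and the summit shared by mrps-24 and mrpl-1 at chrIV:7709834-7709934. That shared summit was below the threshold, where other members had stronger summits. It is shown because it lies near the start of a gene of each subunit, although the start of emc-6 was nearer. Capitals mark every match, on either strand, to the E-box word CACGTG, the GATA-type word TGATAA, the repeat GAGAGA, the word CTGCGTC, the run TTTTTT and also CGCAAA, a word added after these sequences had been seen.
mrpl-28: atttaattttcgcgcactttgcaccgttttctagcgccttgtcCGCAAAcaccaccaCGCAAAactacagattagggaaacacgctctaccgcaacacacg
mrpl-55: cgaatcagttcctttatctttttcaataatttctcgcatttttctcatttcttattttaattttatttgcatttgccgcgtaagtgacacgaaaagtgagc
mrps-7: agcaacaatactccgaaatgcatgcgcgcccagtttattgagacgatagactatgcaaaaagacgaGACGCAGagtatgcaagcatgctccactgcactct
mrpl-12: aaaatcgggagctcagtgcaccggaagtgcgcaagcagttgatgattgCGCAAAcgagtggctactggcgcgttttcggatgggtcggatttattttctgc
mrps-23: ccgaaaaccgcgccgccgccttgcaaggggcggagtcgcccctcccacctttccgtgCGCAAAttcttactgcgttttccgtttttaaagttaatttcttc
mrpl-45: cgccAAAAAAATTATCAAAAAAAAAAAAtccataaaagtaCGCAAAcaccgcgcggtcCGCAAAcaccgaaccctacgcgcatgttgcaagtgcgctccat
mrps-24 and mrpl-1: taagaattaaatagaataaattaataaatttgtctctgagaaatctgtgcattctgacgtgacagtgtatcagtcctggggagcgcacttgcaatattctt

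The windows of the thresholded members were mostly richer in G and C than the median window of members below the threshold. The GC content of the thresholded members had a median of 50.5% and ran up to 57.4% at mrpl-23, while mrpl-55 stood apart at 31.7%. The 44 distinct windows of members below the threshold had a median of 36.1%. Over all genes the same contrast was 48.5% in the 856 thresholded windows and 37.6% in the 6935 windows below the threshold, so the GC content of the members followed that of their class.

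CGCAAA was in 5 of the 8 thresholded member windows (62.5%), those of mrpl-28, mrpl-12, mrps-23, mrpl-45 and mrpl-17, and the windows of mrpl-28 and mrpl-45 held it at 2 places each. The word was in 9.09% of the windows of members below the threshold, in 13.0% of all thresholded gene windows and in 5.61% of all windows below the threshold. Because it was picked from these same sequences, its count among the members is a description with no test. The other words were in at most 2 of the 8 windows. CTGCGTC, read on the opposite strand as GACGCAG, was at mrps-7 alone (12.5%, against 9.70% of all thresholded windows), TGATAA was at mrpl-45 alone (12.5% against 3.97%), and TTTTTT was at mrpl-45 and mrpl-17 (25.0% against 21.6%). Below the threshold TTTTTT was more frequent, in 21 of 44 member windows (47.7%), against 35.7% of all windows there. The matches to TGATAA and TTTTTT at mrpl-45 lie on the opposite strand and run into each other. GAGAGA, in 18.9% of all thresholded windows, and CACGTG, in 3.62%, were in none of the 8, a number of windows too small to resolve shares of this size.

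**Figure D1:**
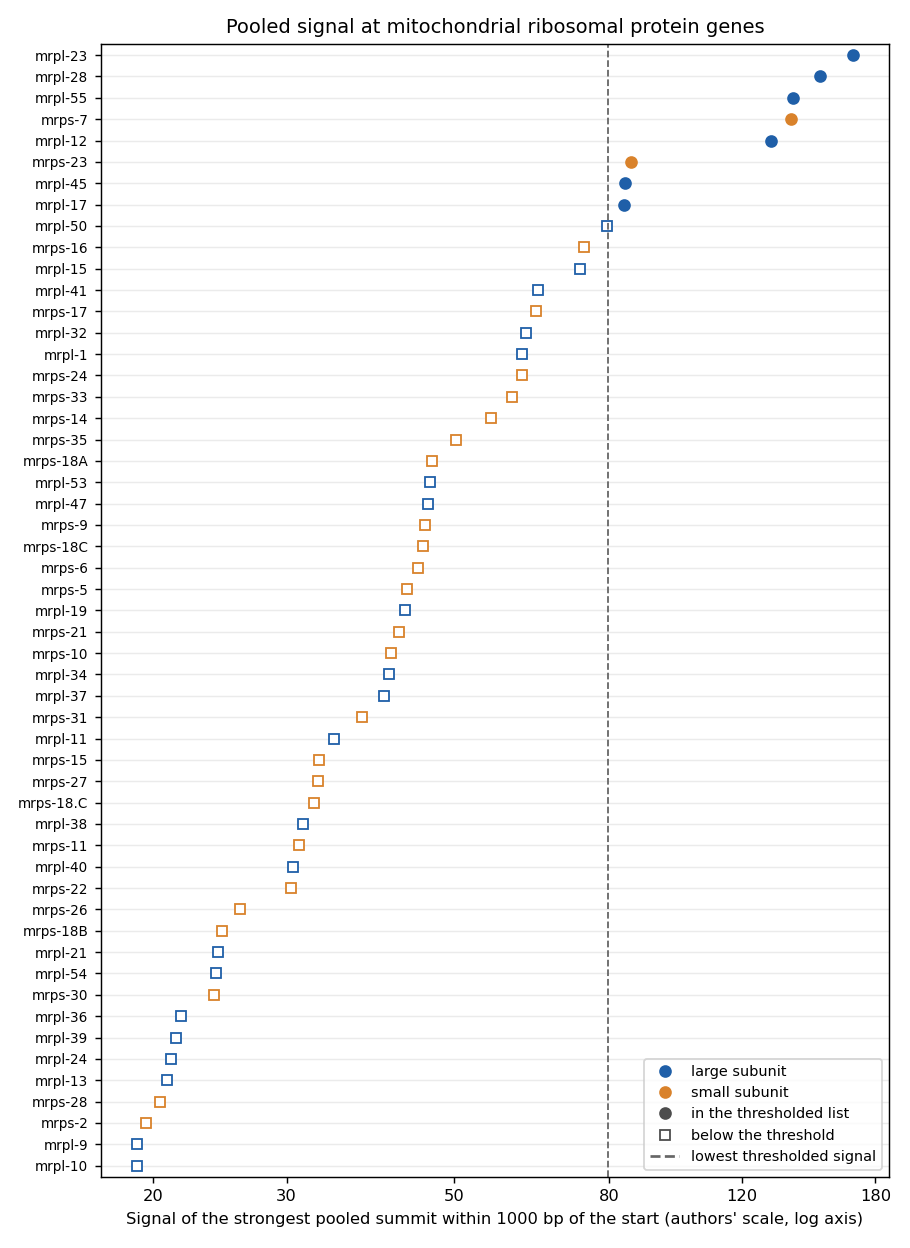
Signal of the strongest pooled summit within 1000 bp of the start of each of the 53 members that had one, on the authors' scale and a log axis, with the large subunit in blue, the small subunit in orange and the lowest thresholded signal of 79.71 as a dashed line. The 8 filled points run from 168.1 at mrpl-23 to 83.8 at mrpl-17, and the open squares below the threshold go down to 19.0 at mrpl-10.

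Over the 53 members with a pooled summit, the signal had a median of 43.03 and ran from 19.01 to 168.1, against a median of 32.76 over all 9153 genes with a summit. The middle member was stronger than 66.7% of those genes. With all genes that had a summit split by signal into 4 equal classes, the members numbered 10, 8, 17 and 18 from the weakest class to the strongest. They were therefore found more in the upper part of the distribution. The strongest member, mrpl-23, was above 96.6% of genes with a summit and ranked 361 among nuclear lines, with a signal of 168.1 where the highest over all genes was 1684. The plot of pooled signals shows 5 members at 131.0 or above, a gap, and then a nearly continuous slope that crosses the threshold between mrpl-17 at 83.8 and mrpl-50 at 79.5.

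Among the thresholded genes of the large subunit, mrpl-28, whose product belongs to the bacterial L28 family, had the plainest setting. Its pooled summit had a signal of 152.1 and rank 467 and lay 128 bp upstream of the start, in intergenic sequence with no other start within 1000 bp. The signal was 64.1 in replicate 1 (rank 862) and 83.7 in replicate 2 (rank 322), with summits 122 and 128 bp upstream. Both replicates therefore placed it at the same spot and among their strongest lines.

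mrpl-55 encodes a protein of the large subunit known from animals and absent from bacterial ribosomes. Its summit, with a pooled signal of 140.0 and rank 540, lay 174 bp upstream of the start, again between genes and with no other start nearby. It ranked 711 in replicate 1 (signal 69.9) and 496 in replicate 2 (signal 68.1). Its window was the poorest in G and C of the 8, and both ranks were well within the length of the thresholded list.

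mrpl-12 encodes the counterpart of the bacterial stalk protein L7/L12, which in human mitochondria has also been found with the mitochondrial RNA polymerase. The summit had a pooled signal of 131.0 and rank 625, with 74.0 in replicate 1 (rank 619) and 57.0 in replicate 2 (rank 724). It lay 518 bp upstream of mrpl-12 but only 215 bp from the start of Y39A1A.22, on the opposite strand, and the start of Y39A1A.21 was within 1000 bp too. The region is therefore shared by 3 annotated starts, and that of mrpl-12 is not the nearest.

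mrpl-45, whose human counterpart sits at the exit of the peptide tunnel and holds the ribosome to the inner membrane, was also not nearest to its summit. The summit had a pooled signal of 84.1 and rank 1501, lay 375 bp upstream of mrpl-45, and was 163 bp from the divergent start of Y119D3B.12. Replicate 1 ranked it 1247 (signal 53.3) and replicate 2 ranked it 2770 (signal 30.5), which is beyond the length of the thresholded list.

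mrpl-17, of the bacterial L17 family, had the weakest thresholded summit, with a signal of 83.8 and rank 1514, 157 bp upstream. The divergent neighbour is vbh-1, which encodes a DEAD-box RNA helicase of the Vasa and Belle type. Here replicate 2 was the stronger, at rank 933 (signal 50.2), while replicate 1 had it at rank 2849 (signal 36.1). mrpl-45 and mrpl-17 thus each passed into the strongest lines of a single replicate, and not the same replicate.

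mrpl-23, of the bacterial L23 family at the tunnel exit, had the highest signal of all members and the least secure link to its gene. The pooled summit, with a signal of 168.1 and rank 361, lay 983 bp upstream, inside an intron of fars-1, which encodes a phenylalanyl-tRNA synthetase subunit and precedes mrpl-23 on the same strand by 96 bp. The region was 121 bp wide, whereas the other 7 thresholded regions were 460 bp wide, and it overlapped the ncRNA gene T08B2.14 and a pseudogene, with the summit 44 bp from the snoRNA gene T08B2.13. Replicate 2 had it at rank 442 (signal 71.5). In replicate 1 the line that overlaps the region ranked 359 (signal 95.8) but its summit was outside the 1000 bp window, so the strongest line within the window was another, at rank 3933 (signal 31.3) and 878 bp downstream. A separate pooled summit of signal 25.3 lay 27 bp upstream of the mrpl-23 start itself.

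The small subunit had 2 thresholded members. mrps-7 encodes the counterpart of bacterial S7, a protein of the head of the small subunit. Its pooled summit had a signal of 139.4 and rank 547 and lay 179 bp upstream, between mrps-7 and the divergent gene Y57G11C.3, with the mrps-7 start the nearer. The signal was 68.5 in replicate 1 (rank 744) and 71.8 in replicate 2 (rank 438).

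mrps-23 lies within an intron of prp-40, a splicing factor gene transcribed the other way, so the summit 82 bp upstream of mrps-23 was intronic in prp-40 without being near its start. Its pooled signal was 85.5 (rank 1447). It ranked 1697 in replicate 1 (signal 46.1) and 1708 in replicate 2 (signal 37.8, summit 20 bp downstream of the start), just past the length of the thresholded list in each, and passed in the pooled list alone.

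**Figure D2:**
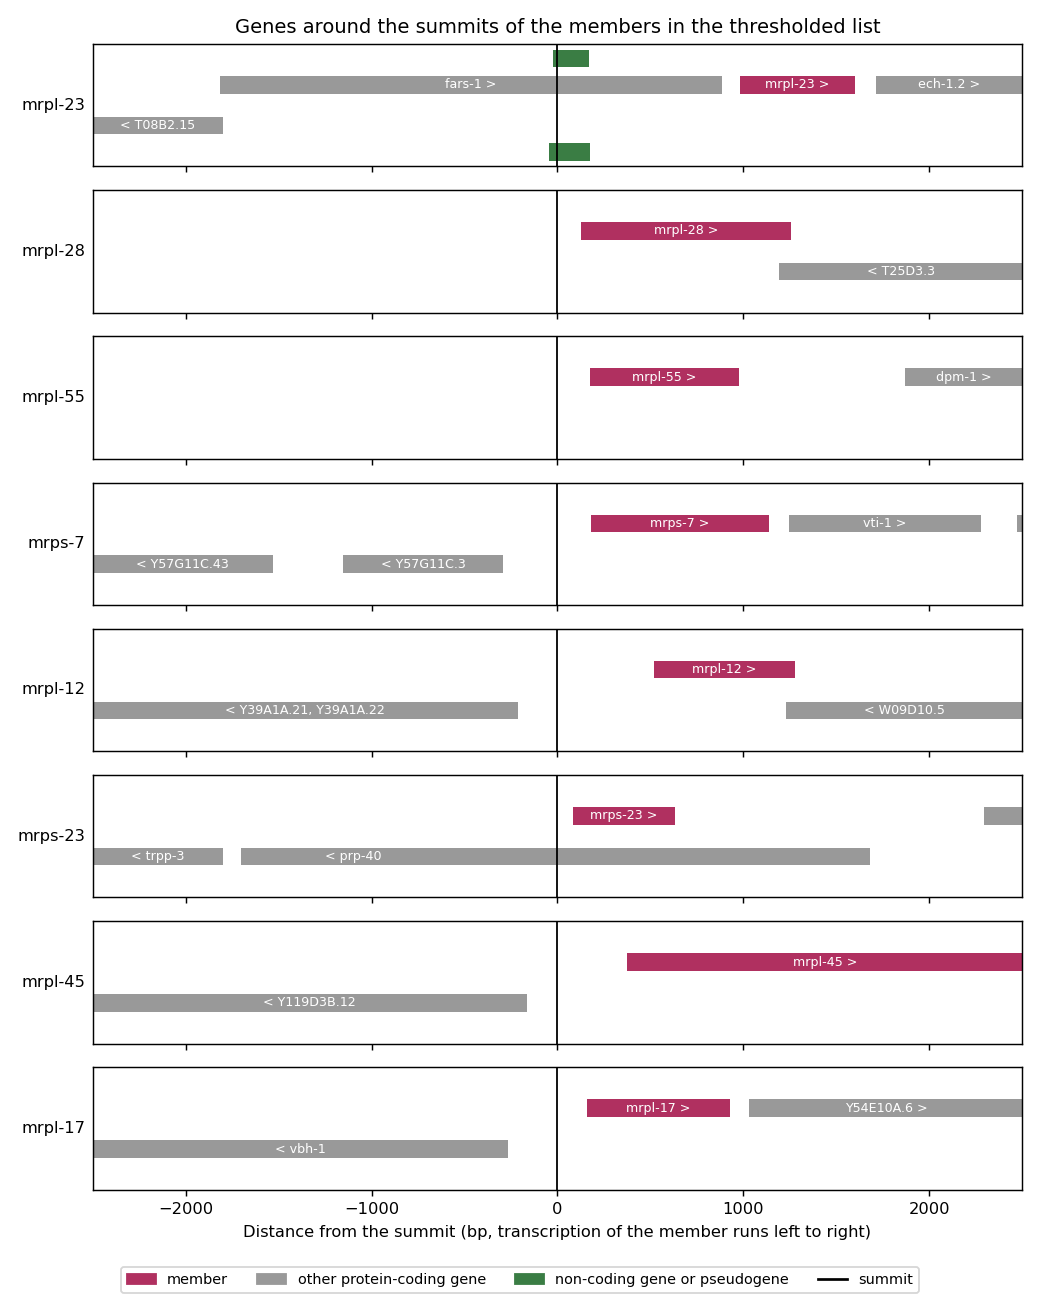
Annotated genes around the 8 thresholded summits, with distance from the summit in bp and each member, in red, drawn with transcription from left to right. Grey bars are other protein-coding genes, green bars are non-coding genes or pseudogenes, and arrowheads give direction. All 8 summits lie upstream of the member, and at mrpl-12 and mrpl-45 a grey gene on the opposite strand starts nearer to the summit.

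The map of neighbouring genes shows where the 8 summits lay. Every summit was upstream of the member, 5 of them within 300 bp, and 6 were intergenic and 2 intronic. The nearest protein-coding start was the member's own at 6 of 8 (75.0%), and at 42.9% of the 7 members reached by the strongest lines of replicate 1 alone. In the pooled list, 4 of the 8 had an opposite-strand start within 1000 bp. Of all 1164 genes with a thresholded summit, 862 kept one when each summit was given to its nearest start only. The other shares were not computed over thresholded genes. Over all genes with a pooled summit, 60.5% of summits were upstream, 27.7% were 1 to 300 bp upstream and 24.1% had an opposite-strand start within 1000 bp. These placements are therefore not shown to be particular to the members.

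Each replicate alone gave a similar number of members but not the same ones. Among as many of the strongest lines as the thresholded list holds, replicate 1 reached 7 of the 70 members (10%, against 5.65% of all genes) and replicate 2 reached 8 (11.4%, against 5.96%), a mean of 10.7% ± 1.01 (SD, n = 2). Only 4 members were reached in both, mrpl-28, mrpl-55, mrps-7 and mrpl-12 (5.71%, interval 2.24 to 13.8), and this share was near the 4.25% of all genes. The pooled region of mrpl-23 was also overlapped by strong lines of both replicates, at ranks 359 and 442. It was not counted because the replicate 1 summit lay outside the 1000 bp window. Of the 53 members with a pooled summit, 47 had a line within 1000 bp of the start in replicate 1, 41 in replicate 2 and 38 in both. Such a line was not always at the pooled region. The pooled region itself was overlapped by a line of replicate 1 for 43 members, of replicate 2 for 36 and of both for 32. Candidate lists run deep into weak regions, and mrpl-24 and mrps-28, with pooled signals of 21.09 and 20.38, had no line in either replicate. mrpl-47 had none either, although its pooled signal of 46.09 (rank 4922) was above the members' median of 43.03. The reason for this mismatch was not tested.

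**Figure D3:**
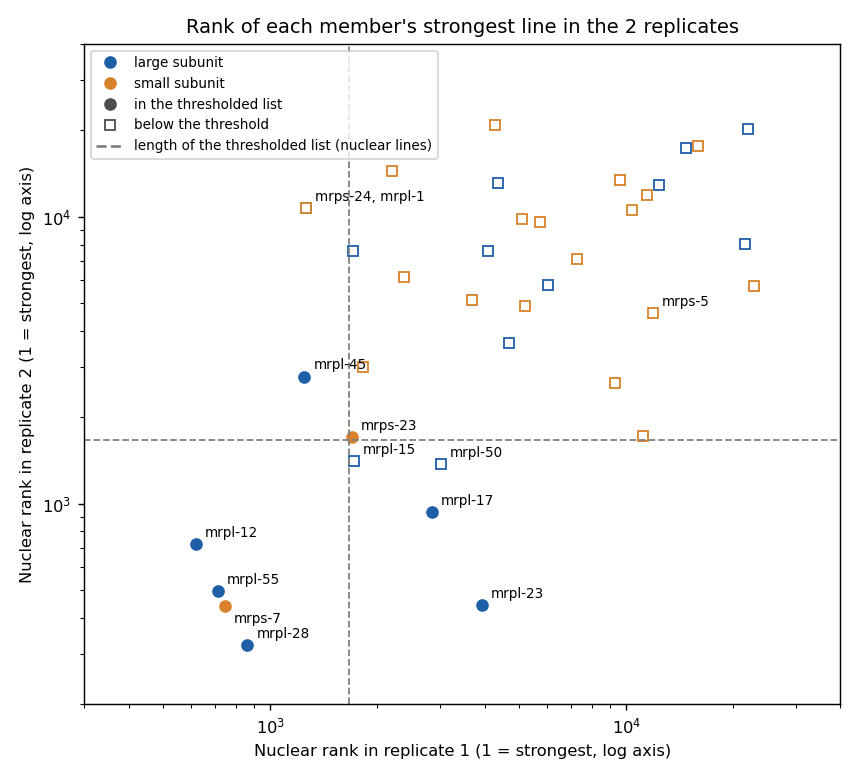
Nuclear rank of the strongest line within 1000 bp of the start in replicate 1 (horizontal) and replicate 2 (vertical), both on log axes with 1 the strongest, for members that have a pooled summit and a line in each replicate. Filled points are thresholded, and the dashed lines mark the 1663 nuclear lines of the thresholded list. mrpl-28, mrpl-55, mrps-7 and mrpl-12 fall inside both lines, and mrps-24 with mrpl-1 at rank 1263 and 10701 lies inside that of replicate 1 alone. For mrpl-23 the replicate 1 rank drawn, 3933, is that of another line than the one overlapping its pooled region, which ranked 359.

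Below the threshold, the strongest members lay in more varied places. mrpl-50 missed the threshold narrowly, with a signal of 79.5 and rank 1669, and its summit was 140 bp downstream of the start in coding sequence. It begins 26 bp after the end of cct-2, a subunit gene of the cytosolic chaperonin, and ranked 3017 in replicate 1 (signal 35.2) and 1370 in replicate 2 (signal 41.7). mrps-16 had a signal of 74.2, 270 bp upstream, with rank 1817 in replicate 1 (signal 44.5) and 3002 in replicate 2 (signal 29.4). Both genes thus had a summit beside the start in each replicate, but only mrpl-50 in replicate 2 was within the length of the thresholded list.

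mrpl-15, of the bacterial L15 family, had a signal of 73.2 at 819 bp upstream and a second, weaker pooled summit of 63.3 at 611 bp upstream. Replicate 2 had its strongest line at the first of these places, at rank 1403 (signal 41.1), while that of replicate 1, at rank 1721 (signal 45.7), had its summit at -591 bp, beside the second. mrpl-41 had a signal of 64.6 in an intron 217 bp downstream, with ranks 4671 and 3630 in replicates 1 and 2. The summit of mrps-17, of the bacterial S17 family, was at 64.0, 118 bp upstream and with the starts of popl-1 and txdc-9 within 1000 bp. It ranked 2379 in replicate 1 and 6170 in replicate 2. None of these ranks but that of mrpl-15 in replicate 2 was within the length of the thresholded list.

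mrps-24 and mrpl-1 are a small-subunit and a large-subunit gene that are transcribed away from each other and shared a summit. It had a pooled signal of 61.5 (rank 2714), lay 161 bp upstream of mrps-24 and 183 bp upstream of mrpl-1, and was nearest to the start of emc-6, a gene of the endoplasmic reticulum membrane complex, at 148 bp. Replicate 1 ranked it 1263 (signal 53.0) whereas replicate 2 ranked its strongest line there 10701 (signal 16.9), so only replicate 1 had it within the length of the thresholded list. The 53 members accordingly had 52 distinct summits.

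The remaining named members below the threshold were mrpl-32 at 62.2 (rank 1712 in replicate 1 and 7612 in replicate 2), mrps-33 at 59.6 (ranks 9311 and 2625) and mrps-14 at 55.8 (ranks 11177 and 1717). All 3 begin within 500 bp of the end of another gene on the same strand. For mrps-33 and mrps-14 the summit was 365 and 127 bp downstream of the start, and replicate 2 was the stronger. The mrps-33 summit lay in a coding exon and was nearer to the start of F21D5.5, at 267 bp. A separate pooled summit of signal 29.2 lay 12 bp downstream of the mrps-33 start.

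mrps-5 is a gene whose knockdown in C. elegans is known to induce the mitochondrial unfolded protein response and to lengthen life. Its pooled summit was of ordinary strength, with a signal of 43.3 and rank 5623, close to the median of the members, and lay 193 bp downstream of the start in an intron. It ranked 11898 in replicate 1 (signal 19.5) and 4604 in replicate 2 (signal 24.4). The gene follows sel-1, an endoplasmic reticulum degradation gene, by 104 bp, and the start of sel-1 had a summit of 36.1.

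The large and small subunits differed little in signal. The median was 43.03 for the 27 large-subunit genes with a summit and 42.80 for the 26 small-subunit genes. A summit was found at 27 of 41 large-subunit genes (65.9%) and 26 of 29 small-subunit genes (89.7%), while the thresholded share ran the other way, at 14.6% and 6.90%. The difference between subunits was not tested.

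**Figure D4:**
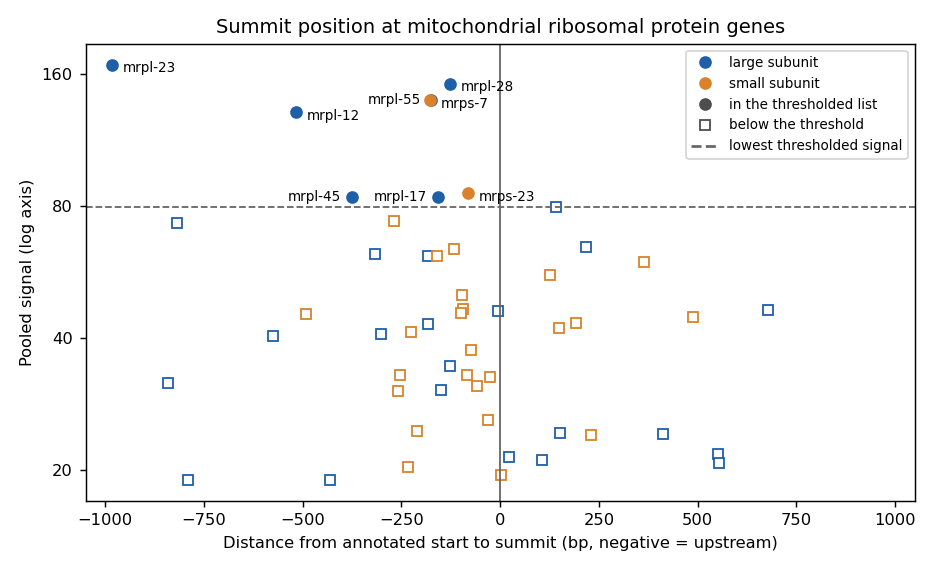
Position of the strongest pooled summit relative to the annotated start (bp, negative upstream) against its signal (log axis) for the 53 members, with large-subunit genes in blue and small-subunit genes in orange. Filled points are thresholded and all lie left of the start, while the open squares below the dashed line at 79.71 fall on both sides, 37 of all 53 being upstream.

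The summits sat closer to the starts than those of all genes, and more so for the small subunit. The median distance was 183 bp for the members, against 366 bp for all genes with a summit, while the median signed offset was almost the same, at -118 bp against -122 bp. As the plot of summit positions shows, 37 of 53 (69.8%) were upstream, against 60.5%, and 26 (49.1%) were 1 to 300 bp upstream, against 27.7%. That band held 69.2% of the small-subunit summits and 29.6% of the large-subunit summits, the latter near the share of all genes. The median distance was 155 bp for the small subunit and 303 bp for the large subunit. By annotation, 29 summits were intergenic, 13 in coding exons, 7 in introns and 4 in untranslated regions. Many annotated starts of C. elegans genes mark a trans-splice site and lie downstream of the point where transcription begins.

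Crowded promoters were common. At 25 of the 53 summits (47.2%) another protein-coding start lay within 1000 bp, against 31.7% over all genes, and at 20 (37.7%) such a start was on the opposite strand, against 24.1%. The member's own start was the nearest at 39 (73.6%), against 84.0%. lin-38 at mrpl-37, lid-1 at mrpl-34 and prp-9 at mrps-18B are examples of neighbours with the nearer start, singled out after their values were seen. A signal near such a member cannot be assigned to it rather than to the neighbour.

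Many members lie in close same-strand runs, defined here as a start at most 500 bp after the end of the preceding protein-coding gene, an operon-like arrangement. They numbered 27 (38.6%), against 18.1% of all genes, with a median gap of 106 bp, and 18 were the second gene of their run. Some runs hold more than 1 gene of the mitochondrial ribosome: mrpl-4 follows mrps-2 by 106 bp, and mrps-22 follows dap-3, a small-subunit gene outside the mrps naming, by 106 bp. Members in runs had a pooled summit at their own start in 21 of 27 cases (77.8%, against 56.2% of all genes in runs) but a thresholded summit in 1, mrpl-23 (3.70% against 5.09%). Members outside runs had 32 of 43 pooled (74.4% against 43.5%) and 7 thresholded (16.3% against 5.99%).

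At the first start of the run the count was higher. The first start had a thresholded summit at most 1000 bp away for 7 of the 27 members in runs (25.9%, interval 13.2 to 44.7), against 12.0% of all genes in runs. The strongest was that of rpn-3, a proteasome lid subunit gene upstream of mrpl-32, with a signal of 62.2 at mrpl-32 itself and 218.9 at the first start. At mrpl-54 the first gene is clsp-1, the claspin counterpart, with 24.2 at mrpl-54 and 210.3 at the start of clsp-1. At mrps-14, which had 55.8, it is nrde-2, a nuclear RNA interference gene, with 158.9, although that summit was at -951 bp from its start.

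The other 4 were F29B9.11 ahead of mrps-21 (156.3 at the first start), W04D2.4 ahead of mrps-11 (121.5), atp-2 ahead of mrps-26 (117.5) and F21D5.7 ahead of mrps-33 (110.3). atp-2 encodes the beta subunit of the mitochondrial ATP synthase, so this run joins a respiratory gene to a gene of the ribosome. Of the 17 members with a summit at both places, the first start was the stronger in 13 and the member's own in 4, which were mrpl-23, mrpl-50, mrpl-53 and mrps-5. For mrpl-23 this rests on the summit 983 bp upstream, as the one beside its start had 25.3 against 51.5 at the first start. The mrpl-53 summit was 678 bp downstream, past the end of the gene. The same count over all genes in runs was not made, so 13 of 17 cannot be read as particular to the members. Counting either place, 15 of 70 members (21.4%, interval 13.4 to 32.4) had a thresholded summit, against 7.66% of all genes. Only genes in runs gain a further place in this count, and members were in runs more often than all genes (38.6% against 18.1%). The shares are therefore not matched for runs. Whether these neighbouring genes are transcribed together was not tested, and the runs are from the annotation alone.

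**Figure D5:**
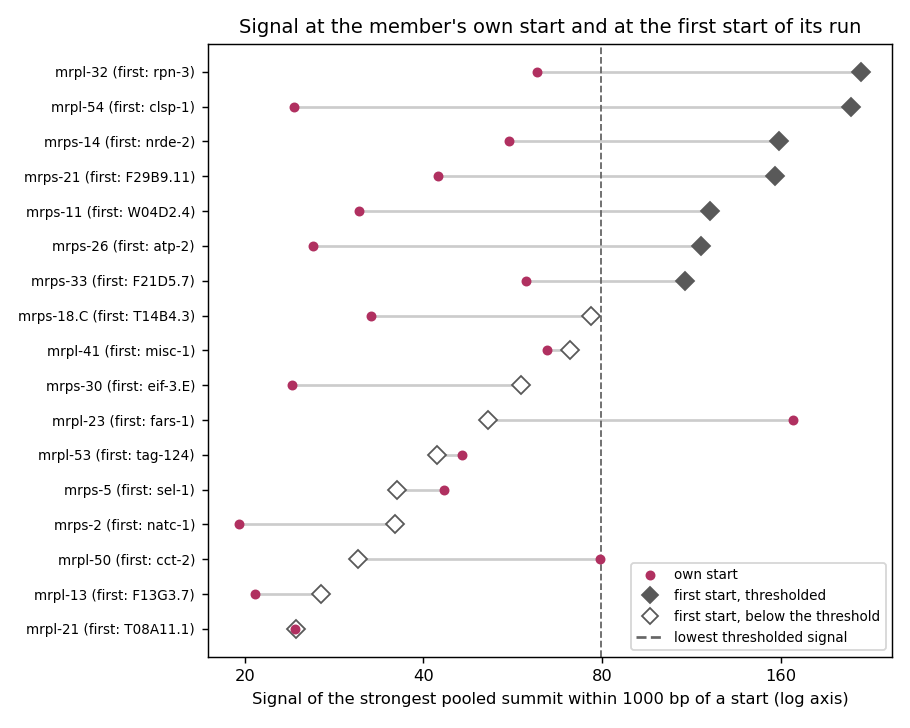
Signal of the strongest pooled summit at the member's own start (red points) and at the first start of its same-strand run (diamonds, filled where thresholded), on a log axis, for the 17 members with both. The dashed line is the lowest thresholded signal, 79.71. The first start is the stronger in 13, and the 7 filled diamonds run from 218.9 at rpn-3 to 110.3 at F21D5.7.

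No pooled summit lay within 1000 bp of 17 members, 14 of the large subunit and 3 of the small. They were mrpl-2, mrpl-4, mrpl-16, mrpl-18, mrpl-20, mrpl-22, mrpl-30, mrpl-35, mrpl-42, mrpl-44, mrpl-46, mrpl-48, mrpl-49, mrpl-51, mrps-12, mrps-25 and mrps-34. The nearest pooled summit was 1014 to 10301 bp from their starts, with a median of 1529 bp, and within 1200 bp for 7 of them. A line in at least 1 replicate was near 9, and in both replicates near mrpl-4 and mrpl-49.

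mrpl-49 was unusual among these. Replicate 1 had a line 160 bp upstream of its start with a signal of 37.9 (rank 2548) and replicate 2 had one 143 bp upstream with 27.6 (rank 3456), yet the pooled list had its nearest summit 1044 bp upstream, with a signal of 34.0 (rank 9467). Both replicate ranks were better than those of most members that had a pooled summit, whose medians were 4930 in replicate 1 and 5763 in replicate 2. The absence of a pooled summit is therefore not an absence of signal in the replicates at this gene.

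Members were on every autosome and none was on X. Chromosome III held 22, of which 15 had a pooled and 3 a thresholded summit. On chromosome I all 15 members had a pooled summit and 2 a thresholded one. Chromosome II held 12 with 11 pooled and 1 thresholded, chromosome IV 11 with 6 and 2, and chromosome V 10 with 6 pooled and none thresholded. Over all genes the thresholded share was 7.37% on chromosome I, 6.18% on II, 8.48% on III, 5.33% on IV and 3.68% on V, and the members of a chromosome were too few to be read against these.

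Genes of cytosolic ribosomal proteins give a scale for these values. The mitochondrial counterparts, at 11.4% thresholded and a median pooled signal of 43.03, were far below the 48 of 81 cytosolic genes (59.3%) and the median of 106.7 found there, a difference given without a test. A list of 38 other genes of mitochondrial translation, genome upkeep and protein quality control, of which 33 matched the annotation, was nearer to the members: 5 of the 33 (15.2%) were thresholded and the median signal was 41.3. The 5 were hsp-60, the mitochondrial chaperonin, at 548.6, ears-2, a glutamyl-tRNA synthetase gene, at 252.2, hsp-6, the mitochondrial Hsp70, at 147.7, aars-1, an alanyl-tRNA synthetase gene, at 127.1, and mtss-1, the mitochondrial single-stranded DNA-binding protein, at 105.4. Of these, hsp-60 and ears-2 exceeded every member. Each of the 5 summits had another protein-coding start within 1000 bp (Y22D7AL.10, uncp-18, C37H5.5, rga-1 and mig-22 in the same order), and that of hsp-60 was 597 bp upstream, so these signals cannot be assigned to the listed gene alone. A pooled summit was near 78 of the 81 cytosolic genes and 27 of the 33 other genes, against 53 of the 70 members. dap-3 had a signal of 37.6 and was below the threshold.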

How the data were processed

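The deposited lists are narrowPeak tables on ce11 from 1 group of 2 biological replicates. The deposited text listings say that candidate regions with background went into an irreproducible discovery rate step and that a control alignment was used. That step is meant to keep regions whose rank repeats between replicates. The thresholded list held the strongest pooled lines, and mrps-23, mrpl-45 and mrpl-17 passed without ranking within its length in both replicates. A place in it does not show that a single region repeated. Not given in the sources used here were aligner, peak caller, cutoff and signal scale. The signal is the authors' own value per region and was used as deposited, within a list only. Lists on ce10 were not used here, because no annotation of that build was at hand.

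Region ends lay within the WBcel235 chromosome lengths, and genes came from Ensembl release 115. Python 3.11.15, NumPy 2.4.6 and SciPy 1.17.1 were used. For each gene the strongest summit within 1000 bp of the start was taken, and mitochondrial lines were left out. The same search on simulated summits recovered the planted genes. The members, lists and rule for named genes were chosen with earlier results of these data known. The rule took every thresholded member, the 10 strongest below the threshold, mrps-5, the starts near thresholded summits, members with no summit, and thresholded genes of the other lists. No p-value was computed: shares stand beside those of all genes, and Wilson intervals cover counting error over genes only. The alternatives were other windows, cutoffs, assignments, run gaps and single replicates.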

Additional observations from a re-analysis of the deposited data

How the results depend on the processing

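The thresholded share of 11.4% was 8.57% within 500 bp and 17.1% within 2000 bp of the start, against 4.36% and 8.52% of all genes. It was 7.14% (all genes 3.15%) with the 843 strongest thresholded lines, 25.7% (10.2%) down to 2 times the length of the thresholded list, 8.57% (4.32%) with each summit given to its nearest start only, and 14.3% (6.46%) when a region had only to overlap the window. In single replicates it was 10% to 11.4%. The share with a pooled summit, 75.7%, was 91.4% (all genes 59.7%) within 2000 bp and 62.9% (40.9%) by nearest start, and 62.9% to 78.6% in single replicates (all genes 38.8% to 43.5%), the lowest without replicate 1. The median signal of 43.03 was 21.77 to 27.92 in single replicates, which have scales of their own. The median offset of -118 bp was -96.0 bp within 500 bp and -168 bp within 2000 bp, and -132 to -111 bp in single replicates. The member was nearest to its thresholded summit in 75.0%, and in single replicates in 42.9% (without replicate 2) to 87.5%. Causes were not tested, beyond that wider windows and longer lists hold more summits by construction. No paired analysis was possible because there was 1 group. The word CGCAAA was added after seeing the data. The main limits are 2 replicates, no untagged list, unknown depth, and starts that share a summit.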
